A study of Mus musculus with 15 samples.

Results

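The 9 genes described here belong to the insulin-like growth factor system and were followed across the subdissected aorta-gonad-mesonephros (AGM) region, the tissue around the embryonic dorsal aorta in which the first hematopoietic stem cells (HSCs) mature. They are Igf1, its receptor gene Igf1r and the 7 binding protein genes Igfbp1 to Igfbp7, taken by name from the 28876 genes of the expression table, which lists all 9 of them. RNA-seq was carried out on 15 libraries of C57BL/6 mouse embryos, with 3 libraries in each of 5 groups, and no group carried a mutation, transgene or treatment. Dorsal aortic tissue (AoD) and ventral aortic tissue (AoV) were taken from embryos of stage E9.5 (E9 AoD and E9 AoV) and E10.5 (E10 AoD and E10 AoV), and the flanking urogenital ridges from embryos of stage E10.5 (E10 UGR). Each library was made from dissected tissue pooled over many embryos, so that a value is an average over embryos and over all cell types of the dissected piece. In such bulk tissue fewer cells of a type and less RNA per cell cannot be told apart.

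IGF1 is a secreted growth factor that signals through the tyrosine kinase receptor encoded by Igf1r, which also binds IGF2 and passes its signal on through the IRS adaptor proteins to PI3 kinase and AKT. Most IGF outside the cell is held by binding proteins, which lengthen its life, keep it from the receptor or bring it close to the cell surface, and which release it when proteases cut them. IGFBP1 to IGFBP6 bind IGFs with high affinity, whereas IGFBP7 binds them only weakly and is best known from blood vessel walls. In the embryo IGF2 is the more abundant ligand, and IGF1 rises with organ formation.

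The 4 binding protein genes that lie beside one another in pairs did not keep the same pattern. On mouse build NCBIM37 Igfbp1 (chromosome 11, 7097785 to 7102549, plus strand) and Igfbp3 (chromosome 11, 7106089 to 7113926, minus strand) point toward each other with 3539 bases between their ends. Igfbp2 (chromosome 1, 72871077 to 72899048, plus strand) and Igfbp5 (chromosome 1, 72904506 to 72921458, minus strand) face each other in the same way across 5457 bases. Their promoters are shown because the neighbours are driven from opposite ends of each pair, and the 4 transcripts differed in when and where they were found. Each sequence is the 250 bases before the start of the gene in the RefSeq promoter table (build GRCm38.p6), written 5′ to 3′ on the gene's strand and placed on NCBIM37 by an exact match at chr11:7097540-7097789 for Igfbp1, chr11:7113927-7114176 for Igfbp3, chr1:72870804-72871053 for Igfbp2 and chr1:72921440-72921689 for Igfbp5. Capitals mark the matches to 3 short motifs that were searched on both strands, namely the TATA box in the form TATAAA, the core CAAAACA of the insulin response sequence, which is known from Igfbp1 promoters and is bound by forkhead factors, and the GC box in the form GGGCGG. No match in these windows overlapped another. The RefSeq start minus the annotated start given above was 5 bases for Igfbp1, 0 for Igfbp3, -23 for Igfbp2 and -19 for Igfbp5. The Igfbp1 and Igfbp5 windows thus reach into the annotated gene. Motif distances are counted from the RefSeq start.
Igfbp1: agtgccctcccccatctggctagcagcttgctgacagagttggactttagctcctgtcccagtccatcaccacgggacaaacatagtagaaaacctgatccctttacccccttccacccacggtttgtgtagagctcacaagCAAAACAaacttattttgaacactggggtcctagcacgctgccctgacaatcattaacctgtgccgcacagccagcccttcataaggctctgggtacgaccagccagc
Igfbp3: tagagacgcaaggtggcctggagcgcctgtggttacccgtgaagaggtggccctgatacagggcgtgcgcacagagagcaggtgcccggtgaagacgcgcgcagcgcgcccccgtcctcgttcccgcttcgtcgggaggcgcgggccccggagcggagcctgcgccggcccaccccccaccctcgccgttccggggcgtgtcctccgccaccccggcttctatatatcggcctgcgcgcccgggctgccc
Igfbp2: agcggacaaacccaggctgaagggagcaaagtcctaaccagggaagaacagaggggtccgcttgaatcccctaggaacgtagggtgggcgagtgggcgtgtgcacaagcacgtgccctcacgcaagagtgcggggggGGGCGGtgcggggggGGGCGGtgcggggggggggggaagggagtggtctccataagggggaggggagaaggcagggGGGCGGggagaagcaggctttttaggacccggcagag
Igfbp5: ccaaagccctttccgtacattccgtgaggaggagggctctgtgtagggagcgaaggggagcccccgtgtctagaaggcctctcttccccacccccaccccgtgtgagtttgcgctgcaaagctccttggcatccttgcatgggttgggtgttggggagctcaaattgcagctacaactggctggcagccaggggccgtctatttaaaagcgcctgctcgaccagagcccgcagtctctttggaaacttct

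The Igfbp1 promoter held CAAAACA 108 bases before the start, and 5.56% of 32817 mouse promoter windows of the same length held it. The Igfbp2 promoter held GGGCGG at 113, 98 and 37 bases before the start, a motif found in 32.7% of the windows. The Igfbp3 and Igfbp5 windows held none of the 3 motifs, and TATAAA, found in 12.4% of all windows, was in none of the 4 promoters. GC content was 73.2% for Igfbp3, 67.2% for Igfbp2, 58.8% for Igfbp5 and 53.2% for Igfbp1. These matches describe letters in the windows and were not tested for any role.

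Values are RPM, the number of reads of a gene scaled to a common total of reads assigned to genes. The sequencing depth, read back from the step that 1 read makes in each library, was between 33.8 and 48.6 megareads, so that 3 reads, used here as the limit of detection, amounted to between 0.0617 and 0.0889 RPM. Libraries of 1 group correlated with each other at 0.993 or more on the log2 scale. Lists of defining markers were summed in each library as a check of the dissected tissues. The 8 urogenital ridge genes summed to between 708 and 767 RPM in E10 UGR but also to between 372 and 410 RPM in E10 AoV, the 8 sclerotome and myotome genes to between 459 and 756 RPM in the 6 dorsal libraries and at most 180.1 RPM elsewhere, and the 6 endothelial genes were present in all groups (284 to 668 RPM). The 6 neural tube genes reached 191 to 396 RPM in E9 AoD and at most 74.3 RPM in E10 AoD, so the dorsal tissue of the earlier stage held neural transcripts, and the 8 liver and gut endoderm genes reached 489 to 737 RPM in E9 AoV and at most 31.7 RPM in any other group. The 5 erythroid genes ranged from 2702 to 12704 RPM within E9 AoV alone, and the 4 germ cell genes reached between 23.8 and 26.9 RPM in E10 AoV and at most 7.03 RPM elsewhere.

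All 9 genes had at least 0.5 RPM in at least 1 library and were among the 18553 genes tested. Igf1, Igf1r, Igfbp2, Igfbp3, Igfbp4 and Igfbp5 passed this minimum in 15 of 15 libraries and Igfbp7 in 14. Igfbp1 passed it in 5 libraries only, of E9 AoV and E10 UGR, and Igfbp6 in the 3 libraries of E10 UGR only, so these 2 genes had to be higher there to be tested at all. A gene was called when its adjusted p was below 0.05 and its fold change at least 2 on the scale of RPM plus 0.1, which understates the changes of the low genes Igfbp1 and Igfbp6. The p-values measure the spread between pooled libraries of the same tissue.

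**Figure D1:**
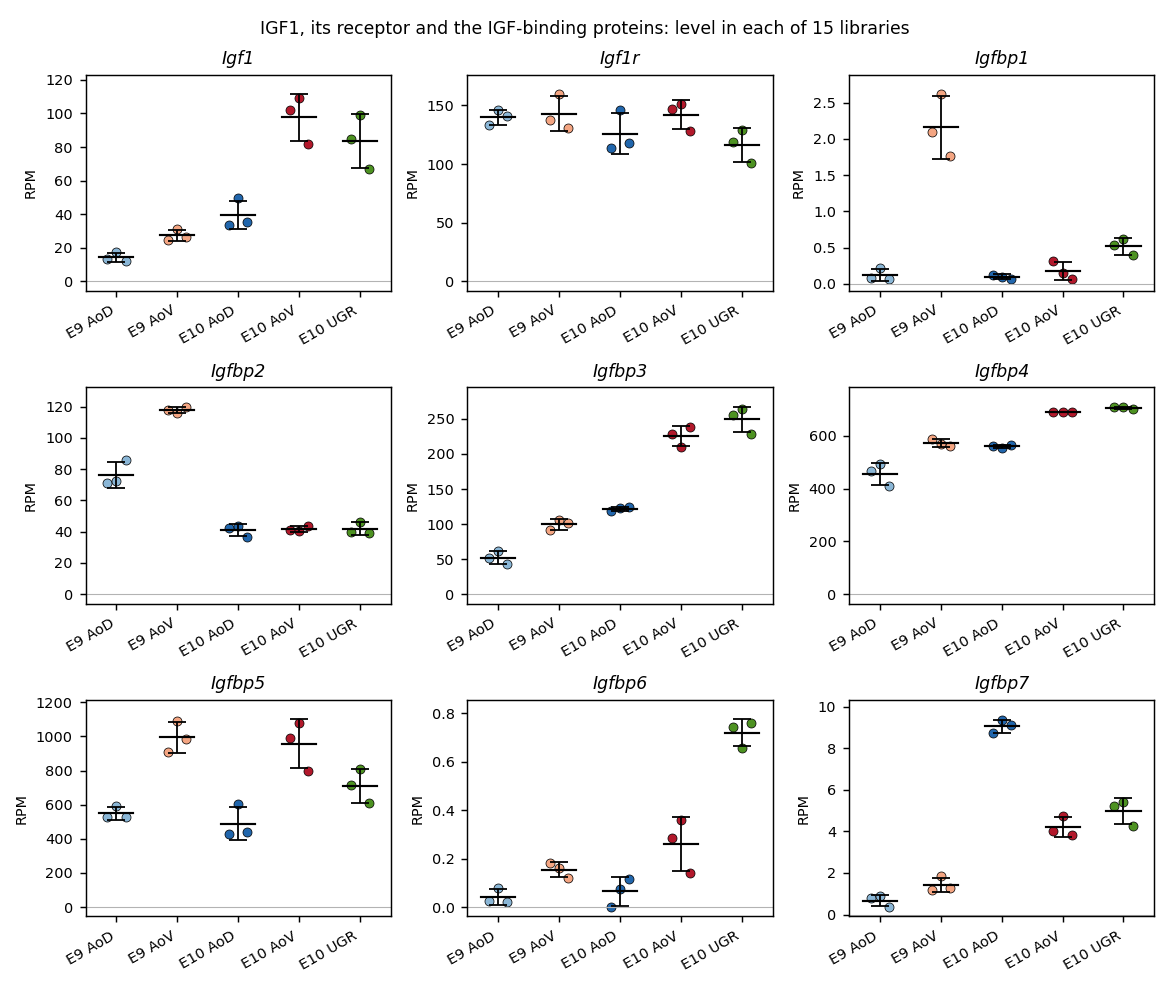
Level of each gene in RPM (vertical axes, linear and different in each panel) in the 15 libraries of the 5 groups (horizontal axes). Points are libraries, left to right replicates 1 to 3, horizontal bars are means and error bars are SD (n = 3). Igf1 and Igfbp3 were lowest in E9 AoD and at least 66.7 and 210 RPM in every library of E10 AoV and E10 UGR, Igf1r stayed between 101 and 160 RPM, Igfbp1 was above 1 RPM in E9 AoV only and Igfbp7 was above 8 RPM in E10 AoD only.

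Igf1, the ligand, climbed along both axes of the dissection. It was lowest in E9 AoD, with 13.2, 17.3 and 12.4 RPM in the 3 replicates, followed by E9 AoV with 24.7, 31 and 26.4 RPM and E10 AoD with 33.8, 49.4 and 35.4 RPM. The highest values were those of E10 AoV, at 102, 109 and 81.9 RPM, and of E10 UGR, at 84.6, 98.9 and 66.7 RPM. Only these last 2 groups overlapped, and every other step in this order separated all libraries of one group from all libraries of the next. Between E9.5 and E10.5 Igf1 rose in the ventral tissue by 1.83 ± 0.17 on the log2 scale (SE, n = 3 against 3, adjusted p = 7.66e-07), a 3.55-fold change, and in the dorsal tissue by 1.46 ± 0.17 (adjusted p = 4.89e-06), a 2.74-fold change. The change was not shown to differ between the tissues, the difference being 0.37 with a 95% confidence interval from -0.15 to 0.90 (adjusted p = 0.295, and as low as 0.0311 among the alternative settings). At E10.5 Igf1 was 2.48-fold higher in AoV than in AoD (1.31 ± 0.17, adjusted p = 2.44e-05), while at E9.5 the ventral excess of 1.92-fold passed the adjusted p (0.000399) but not the fold threshold. E10 AoD was also below E10 UGR (-1.08 ± 0.17, adjusted p = 0.000142), and this call lies so near the threshold that it was lost without E10 AoD replicate 1 (-0.98) or E10 UGR replicate 2 (-0.95). Between E10 AoV and E10 UGR no difference was detected (0.24, 95% confidence interval -0.13 to 0.60, adjusted p = 0.346 and as low as 0.0497 among the alternative settings). The urogenital ridge markers, also high in these 2 groups, summed to between 61.4 and 154 RPM in E9 AoD, 90.8 and 93.6 RPM for E9 AoV and 74.1 and 99.2 RPM for E10 AoD, and their part in the Igf1 values was not tested.

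Igf1r, the receptor, was the only one of the 9 genes that passed the adjusted p in none of the comparisons. Its levels were 133, 146 and 141 RPM in E9 AoD, 138, 160 and 131 RPM in E9 AoV, and 114, 146 and 118 RPM in E10 AoD. E10 AoV had 147, 151 and 128 RPM, and the ridges had 119, 129 and 101 RPM. All neighbouring groups in the order of their means overlapped, and the highest mean was 1.23 times the lowest. The largest estimate was that of E10 AoV over E10 UGR (0.29, 95% confidence interval 0.06 to 0.52, adjusted p = 0.053). The intervals of the other 5 comparisons of groups lay within -0.39 and 0.40 on the log2 scale. Under the alternative settings the estimate for E10 AoV over E10 UGR ranged from 0.19 to 0.37, and its adjusted p went as low as 0.00375. The adjusted p also reached 0.039 for E10 AoD over E9 AoD and 0.0437 for E10 AoV over E10 AoD, both without E10 AoD replicate 2, so that Igf1r passed in 3 comparisons under some setting.

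Among the binding proteins, Igfbp4 and Igfbp5 were the most abundant per length of transcript. Igfbp4, a binding protein that holds IGFs back from the receptor until it is cut by PAPP-A, was found at 467, 492 and 409 RPM in E9 AoD, 588, 568 and 562 RPM for E9 AoV and 561, 554 and 566 RPM for E10 AoD. In E10 AoV it was found at 690, 691 and 692 RPM and in E10 UGR at 708, 709 and 700 RPM. The SD ranged from 1 RPM in E10 AoV to 42.6 RPM in E9 AoD, and the fit estimated the error from all 15 libraries together. Small differences passed the adjusted p without reaching the fold threshold. Igfbp4 was 1.26-fold higher in ventral than in dorsal tissue at E9.5 (adjusted p = 0.000106) and 1.23-fold higher at E10.5 (adjusted p = 0.000325). It was 1.21-fold higher at E10.5 than at E9.5 in AoV (adjusted p = 0.000673) and 1.23-fold higher in AoD (adjusted p = 0.000185).

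Igfbp5, which can bind to matrix and cell surfaces, followed position and not stage. Dorsal libraries had 526, 592 and 528 RPM at E9.5 and 426, 601 and 440 RPM at E10.5. Ventral libraries had 909, 1090 and 987 RPM at E9.5 and 988, 1080 and 800 RPM at E10.5, and E10 UGR lay between them at 713, 810 and 610 RPM. No dorsal library reached the lowest ventral one. The ventral excess was 0.86 ± 0.14 on the log2 scale at E9.5 (adjusted p = 0.000119) and 0.97 ± 0.14 at E10.5 (adjusted p = 4.69e-05), in both cases just below the fold threshold, which the second passed without E10 AoD replicate 2 (1.13) or E10 AoV replicate 3 (1.10). With stage it moved by -0.07 (95% confidence interval -0.36 to 0.23) in AoV and -0.18 (-0.48 to 0.11) in AoD, where it was -0.34 (adjusted p = 0.035) without E10 AoD replicate 2. E10 AoV was above E10 UGR by 0.43 ± 0.14 (adjusted p = 0.0301, and between 0.0669 and 0.137 without E10 AoV replicate 1 or 2 or E10 UGR replicate 1 or 3) and E10 AoD below it by -0.55 ± 0.14 (adjusted p = 0.00497).

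Its neighbour Igfbp2, a binding protein of fetal tissues with a preference for IGF2, followed stage more than position and fell. At E9.5 it was found at 70.9, 72.3 and 85.8 RPM in AoD and at 118, 116 and 120 RPM in AoV. At E10.5 it was at 42.5, 43.5 and 36.4 RPM in AoD, 40.8, 40.7 and 43.9 RPM in AoV and 39.9, 46.5 and 38.9 RPM in UGR. The 3 groups of E10.5 overlapped one another, whereas all libraries of E9.5 lay above them. Igfbp2 fell by 1.50 on the log2 scale in the ventral tissue (SE 0.08, adjusted p = 4.72e-09) and by 0.90 in the dorsal tissue (SE 0.08, adjusted p = 4.48e-07, short of the fold threshold). The ventral fall was the larger one, by 0.59 ± 0.12 (adjusted p = 0.0016). The excess of E9 AoV over E9 AoD (0.63 ± 0.08, adjusted p = 2.14e-05) was not seen at E10.5 (0.04, 95% confidence interval -0.14 to 0.22).

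Igfbp3, which with the acid labile subunit carries most IGF in adult serum, rose where Igfbp2 fell. It was found at 51.7, 61.9 and 43.1 RPM in E9 AoD, 91.3, 106 and 102 RPM for E9 AoV and 118, 123 and 124 RPM for E10 AoD. E10 AoV had 228, 210 and 238 RPM and E10 UGR 255, 264 and 229 RPM. The order of the 5 groups was that of Igf1 except at its top, where the overlapping E10 AoV and E10 UGR changed places. Igfbp3 rose with stage by 1.18 ± 0.10 in AoV (adjusted p = 3.02e-07) and 1.23 ± 0.10 in AoD (adjusted p = 1.19e-07), and these changes differed by -0.06 (95% confidence interval -0.36 to 0.25). The ventral excess of 0.95 ± 0.10 at E9.5 (adjusted p = 2.48e-06) and 0.89 ± 0.10 at E10.5 (adjusted p = 5.82e-06) stayed below the fold threshold. E10 AoD was 0.489 times E10 UGR (-1.03 ± 0.10, adjusted p = 1.06e-06), a call lost under median-of-ratios scaling (-0.97) and without E10 UGR replicate 2 (-0.99). Igfbp3 was among the secreted factors that the study picked for culture experiments from these same libraries, so its ventral rise with stage is not independent evidence of that direction.

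**Figure D2:**
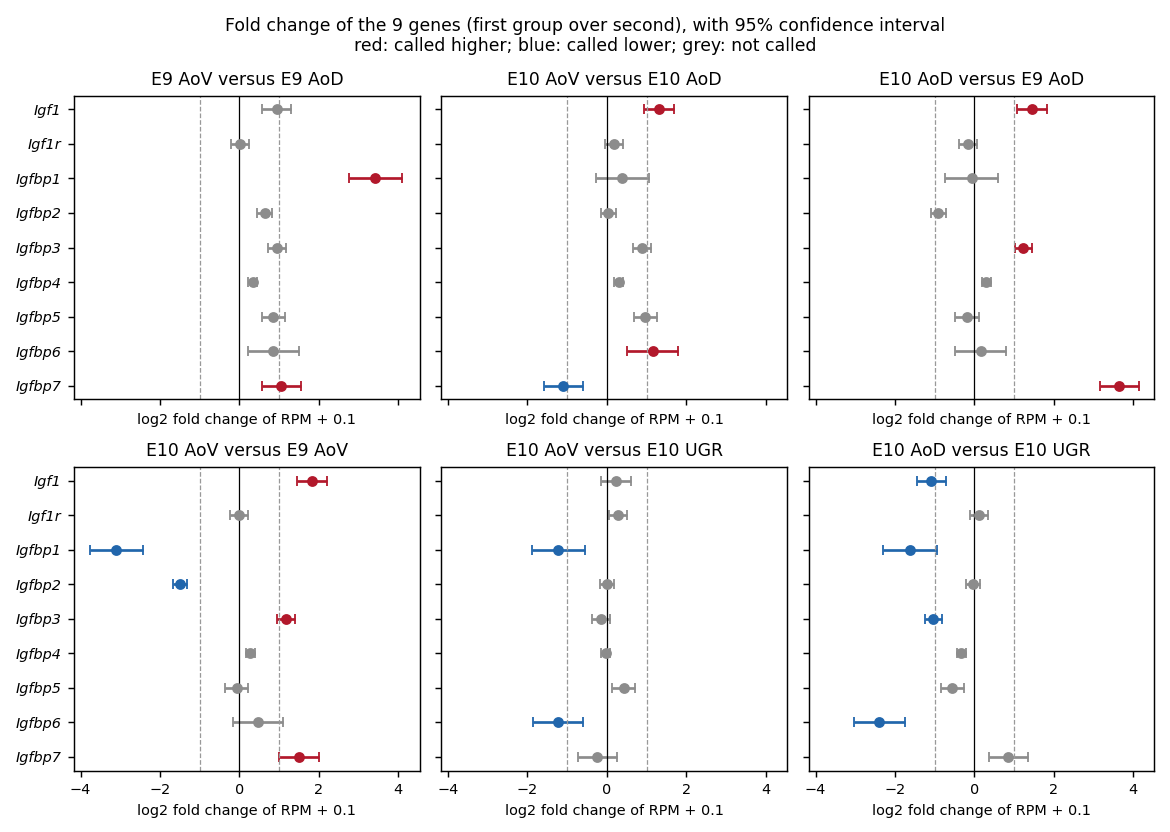
Fold change of the 9 genes (rows) in 6 comparisons of tissue groups (panels), on the log2 scale of RPM plus 0.1 (horizontal axes). Points are limma estimates from 3 against 3 libraries, bars are 95% confidence intervals, dashed lines mark a 2-fold change and colours the calls. For E9 AoV over E9 AoD the intervals of all genes but Igf1r lay above 0. Igfbp7 lay above 0 at E9.5 and below 0 at E10.5 in the ventral to dorsal comparison.

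Igfbp7, the weak IGF binder known from vessel walls, had a pattern of its own. In E9 AoD it was found at only 0.777, 0.869 and 0.355 RPM and in E9 AoV at 1.2, 1.83 and 1.28 RPM. A day later E10 AoD had 8.72, 9.34 and 9.11 RPM, E10 AoV 4.01, 4.75 and 3.84 RPM and E10 UGR 5.23, 5.43 and 4.26 RPM. The dorsal tissue thus went from the lowest group to the highest, without overlap with any other group at either end. The rise was 3.65 ± 0.23 on the log2 scale in AoD (adjusted p = 9.45e-09), a 12.6-fold change, and 1.50 ± 0.23 in AoV (adjusted p = 8.91e-05), a 2.83-fold change. The 2 rises differed (-2.15 ± 0.33, adjusted p = 0.000167). Accordingly Igfbp7 was higher in AoV than in AoD at E9.5 (1.05 ± 0.23, adjusted p = 0.00158) and lower at E10.5 (-1.10 ± 0.23, adjusted p = 0.00162). The E9.5 call was lost, with the direction kept, without E9 AoD replicate 3 (0.71) or E9 AoV replicate 2 (0.88), with quantile normalization (0.82) and with larger pseudocounts (0.55 with 1 RPM). The E10.5 call was lost with a pseudocount of 1 RPM (-0.96).

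The exons of Igfbp7 (chromosome 5, 77778265 to 77837070, minus strand) share 85 bases with Polr2b, an RNA polymerase II subunit gene on the opposite strand, and the reads were not counted by strand. Polr2b itself was highest in E9 AoD (189 to 209 RPM) and lay between 153 and 167 RPM in the 9 libraries of E10.5, and the part of its reads in the Igfbp7 values was not tested. Endothelial markers, summed over 6 genes, went from between 284 and 385 RPM in E9 AoD to between 593 and 644 RPM in E10 AoD, and smooth muscle markers, summed over 4 genes, from between 63.1 and 122.6 RPM to between 527 and 689 RPM. In AoV the endothelial sum was 566 to 626 RPM at E9.5 and 615 to 668 RPM at E10.5, and the smooth muscle sum 430 to 446 RPM and 668 to 748 RPM. E10 UGR, in which the Igfbp7 values overlapped those of E10 AoV, had 45.4 to 71.5 RPM of the smooth muscle genes. The 4 macrophage genes summed to between 1.84 and 3.82 RPM in E9 AoD and between 6.53 and 8.50 RPM in E9 AoV. At E10.5 their sum was 49.5 to 57.5 RPM in AoD, 37.7 to 46.4 RPM in AoV and 27.9 to 35.5 RPM in UGR. The part of these cells in the Igfbp7 values was not tested.

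**Figure D3:**
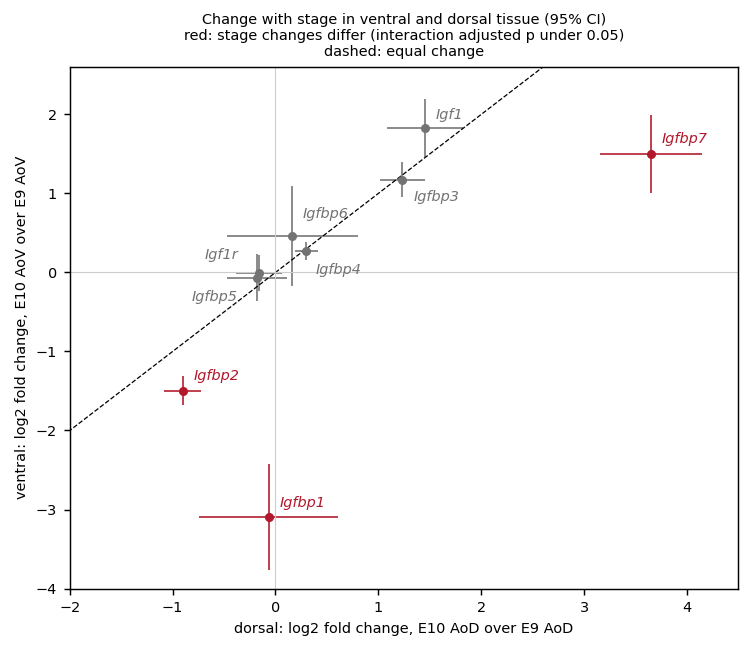
Change with stage in ventral tissue (vertical axis) against dorsal tissue (horizontal axis) for each of the 9 genes, as log2 fold change of RPM plus 0.1, with 95% confidence intervals as bars. The dashed line marks equal change. Igfbp7 rose more in dorsal tissue, Igfbp1 fell in ventral tissue only and Igfbp2 fell more in ventral tissue. Igf1 and Igfbp3 lay near the line in the upper right.

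Igfbp1, a binding protein that liver secretes under the control of insulin, was high in E9 AoV. It was found there at 2.1, 2.62 and 1.76 RPM, but at 0.0737, 0.215 and 0.0641 RPM in E9 AoD. At E10.5 it was found at 0.128, 0.1 and 0.071 RPM in AoD, 0.311, 0.153 and 0.0699 RPM in AoV and 0.533, 0.617 and 0.394 RPM in UGR. E9 AoV stood above all other libraries and E10 UGR above the remaining 3 groups, which overlapped each other near the limit of detection. In estimated reads these values correspond to 279 in the 3 libraries of E9 AoV and 14 in those of E9 AoD, a ratio of 19.3 per unit of depth, with an exact (Clopper-Pearson) 95% interval from 11.3 to 35.7 that covers counting error only. The fitted change for this contrast was 3.43 ± 0.31 (adjusted p = 5.08e-07), and it ranged from 1.49 to 3.73 over the alternative settings, with the lowest at a pseudocount of 1 RPM. With stage Igfbp1 fell by 3.10 on the log2 scale in AoV (SE 0.31, adjusted p = 1.51e-06) but not measurably in AoD (-0.07, 95% confidence interval -0.74 to 0.60), and the difference between these changes was -3.03 ± 0.44 (adjusted p = 0.000126). E10 AoV and E10 AoD lay below E10 UGR by -1.22 ± 0.31 (adjusted p = 0.00848) and -1.62 ± 0.31 (adjusted p = 0.000761), and with a pseudocount of 0.5 or 1 RPM both stayed short of the fold threshold. Igfbp1 was tested only because libraries of E9 AoV and E10 UGR passed the minimum. Its ratio and p-values are therefore no independent test that these 2 groups were higher.

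The same E9 AoV libraries held transcripts of liver and gut endoderm. All 8 genes of that list, Afp, Alb, Ttr, Apoa1, Apoa2, Fgb, Foxa1 and Hnf4a, had at least 0.5 RPM in all 3 of them, with Afp between 328 and 491 RPM and Alb between 18.5 and 31.6 RPM. Its sum, 489 to 737 RPM here, was 5.22 to 31.7 RPM in the E9 AoD libraries. At E10.5 it was 9.78 to 13.8 RPM for AoD, 2.26 to 3.31 RPM for AoV and 4.30 to 4.83 RPM for UGR. None of its genes was at 0 in all 3 libraries of any group, and in E10 AoV none reached 0.5 RPM in all 3 libraries. In E10 UGR, where Igfbp1 was next highest, Hnf4a was found at 2.14 to 2.67 RPM and Foxa1 at 0.169 to 0.326 RPM. The list did not move as one between E10 UGR and E10 AoV. Their mean RPM were 2.45 and 0.464 for Hnf4a, 0.226 and 0.0982 for Fgb and 0.359 and 0.314 for Apoa2. They were 0.303 and 0.301 for Alb, 0.701 and 0.755 for Afp and 0.171 and 0.183 for Apoa1. For Ttr they were 0.0467 and 0.150, and for Foxa1 0.247 and 0.621. In E10 AoD Foxa1 was found at 9.09 to 12.7 RPM, most of the sum of the list there, and Hnf4a at no more than 0.201 RPM. The part of these cells in the Igfbp1 values was not tested. The neighbouring Igfbp3, at 91.3 to 106 RPM in E9 AoV, was by contrast below the levels of every E10.5 library.

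**Figure D4:**
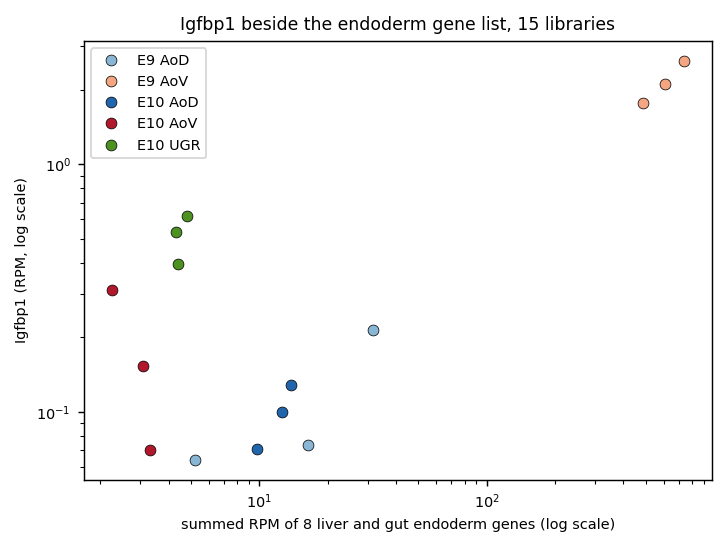
Igfbp1 (vertical axis, RPM, log scale) against the summed RPM of 8 liver and gut endoderm genes (horizontal axis, log scale) in the 15 libraries, coloured by group. The 3 E9 AoV libraries lay apart at 1.76 RPM or more of Igfbp1 and 489 RPM or more of the list. E10 UGR had more Igfbp1 than E10 AoD with less of the list. In E10 AoD Foxa1 (9.09 to 12.7 RPM) made up most of the list. The part of endoderm cells in the Igfbp1 values was not tested.

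Igfbp6, which prefers IGF2 over IGF1, lay near the limit of detection outside the ridges. Its values were 0.0246, 0.0806 and 0.0214 RPM in E9 AoD, 0.182, 0.162 and 0.119 RPM for E9 AoV and 0, 0.0753 and 0.118 RPM for E10 AoD. E10 AoV had 0.285, 0.358 and 0.14 RPM and E10 UGR 0.741, 0.658 and 0.76 RPM. In E10 UGR it was clear of every other library, and the dorsal libraries were around the limit of detection. Over 3 libraries each, 84 estimated reads in E10 UGR stood against 31 in E10 AoV, a ratio of 2.77 (exact 95% counting interval 1.82 to 4.33), and against 8 in E10 AoD, a ratio of 10.8 (5.23 to 25.8). The fitted changes were -1.23 ± 0.30 for E10 AoV (adjusted p = 0.0057) and -2.39 ± 0.30 for E10 AoD against E10 UGR (adjusted p = 1.23e-05). Igfbp6 was tested only because its E10 UGR libraries passed the minimum. These ratios and p-values are therefore no independent test that E10 UGR was higher. With a pseudocount of 1 RPM both stayed short of the fold threshold (-0.45 and -0.69), as did the first with 0.5 RPM (-0.69) and without E10 AoV replicate 3 (-0.96). E10 AoV was above E10 AoD by 1.16 ± 0.30 (adjusted p = 0.00677), a call lost with either larger pseudocount (0.43 and 0.24), with quantile normalization (0.94) and without E10 AoD replicate 1 (0.83) or E10 AoV replicate 2 (0.96).

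Read by comparison, all of the genes but Igf1r were higher on the ventral side at E9.5. Of the 9, 2 were called higher in E9 AoV (Igfbp1 and Igfbp7) and none lower, against 8.32% of all tested genes called higher and 11.8% called in either direction. Of all genes called in this comparison, 70.6% were called higher in E9 AoV. The Igf1r estimate (0.03) changed sign under some settings. The other 8 of the 9 passed the adjusted p higher in E9 AoV, which 27.5% of tested genes did in the same direction. Igfbp1 and Igfbp6 are part of these counts, and over the 7 other genes 1 was called and 6 passed the adjusted p. Igfbp6 no longer passed it with either larger pseudocount or with quantile normalization (adjusted p between 0.0634 and 0.0993), nor without E9 AoD replicate 1 or 3 or E9 AoV replicate 1 or 2. The median log2 fold change was 0.86 against 0.02 for all tested genes, and it was also 0.86 over the 7 genes. The count of 2 rested on single libraries, being 5 without E9 AoD replicate 2, 4 without E9 AoV replicate 1 and 1 without E9 AoD replicate 3 or E9 AoV replicate 2.

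The same comparison at E10.5 gave 3 called genes, with Igf1 and Igfbp6 higher and Igfbp7 lower in AoV, against 10.1% of tested genes. Here 5 genes passed the adjusted p higher in AoV (Igf1, Igfbp3, Igfbp4, Igfbp5 and Igfbp6), as did 20.2% of tested genes. Lower in AoV 1 passed it (Igfbp7), as did 15.3% of tested genes. Without Igfbp1 and Igfbp6, 2 of the 7 other genes were called. The median was 0.39 against 0.02 for all tested genes. The count of 3 became 2 to 4 when single libraries were left out.

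With stage, 5 of the 9 genes were called in the ventral tissue, against 11% of tested genes. Igf1, Igfbp3 and Igfbp7 rose, as did 6.04% of tested genes, while Igfbp1 and Igfbp2 fell, as did 4.99%. In the dorsal tissue 3 genes were called against 12.6% of tested genes (8.6% higher), and Igf1, Igfbp3 and Igfbp7 rose here too. The 2 stage comparisons share no libraries. AoD and AoV were however subdissected from the AGM regions of the same stages, and the error was estimated from all 15 libraries together. The comparisons are therefore not shown to be independent of each other. Both counts were the same whichever single library was left out. Over the genes other than Igfbp1 and Igfbp6 the counts were 4 of 7 and 3 of 7.

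Against the urogenital ridges, 2 genes were called lower in E10 AoV (Igfbp1 and Igfbp6, the 2 that entered the test partly or wholly through their E10 UGR libraries), against 7.57% of tested genes (3.73% lower), and none of the other 7 was called. Without E10 AoV replicate 3 neither was called (-0.91 and -0.96). E10 AoD had 4 genes called lower than E10 UGR (Igf1, Igfbp1, Igfbp3 and Igfbp6), against 11.3% of tested genes (6.56% lower), or 2 of the 7 without Igfbp1 and Igfbp6. The count was 2 without E10 UGR replicate 2. Igfbp7 was higher in E10 AoD than in E10 UGR (0.86 ± 0.23, adjusted p = 0.00783), short of the fold threshold. Both comparisons share the E10 UGR libraries.

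The change with stage differed by at least 2-fold between ventral and dorsal tissue for 2 of the 9 genes, Igfbp1 and Igfbp7, against 11% of tested genes (6.89% with the lower ventral change). Igfbp1 entered the test through its E9 AoV and E10 UGR libraries, and without it and Igfbp6 the count was 1 of 7. In both cases the ventral change lay below the dorsal one.

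Because the transcripts differ in length, the binding proteins were also set beside one another per kilobase of exon. On this scale Igfbp1 to Igfbp7 summed to 343 ± 23 RPM per kb in E9 AoD and 387 ± 16 in E10 AoD, and to 507 ± 14 in E9 AoV, 550.2 ± 19 for E10 AoV and 525 ± 27 for E10 UGR (SD, n = 3). Every ventral and ridge library was above every dorsal one. Igfbp4 made up between 47.9% (E9 AoV) and 61.4% (E10 AoD) of the sum as group means, and Igfbp5 between 20.9% (E10 AoD) and 32.7% (E9 AoV). The exchange with stage was between Igfbp2 and Igfbp3. Igfbp2 went from 12.1% to 5.70% in AoD and from 12.6% to 4.12% in AoV, and Igfbp3 from 4.84% to 10.1% in AoD and from 6.29% to 13.1% in AoV. Igfbp7 made up at most 1.98% of the sum in any library, Igfbp1 at most 0.329% and Igfbp6 at most 0.138%.

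The level of Igf1 per kilobase was small beside that of the binding proteins and grew in relation to it. It amounted to 0.418% ± 0.050 of the summed binding protein level in E9 AoD and 0.544% ± 0.050 in E9 AoV, and to 1.02% ± 0.18 in E10 AoD, 1.78% ± 0.20 for E10 AoV and 1.59% ± 0.23 for E10 UGR. These are ratios of transcript levels over the annotated exons and do not give protein amounts.

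**Figure D5:**
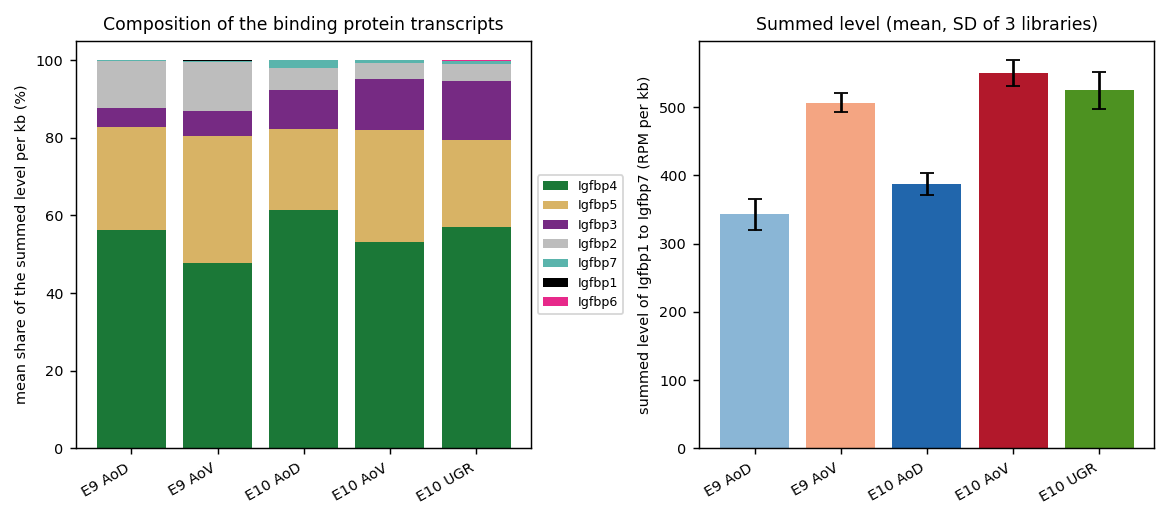
Composition (left, mean share of each gene in the summed level per kilobase, in %) and summed level (right, RPM per kb, bars are means and error bars SD, n = 3) of the Igfbp1 to Igfbp7 transcripts in the 5 groups. Igfbp4 and Igfbp5 took most of the sum in every group, Igfbp2 and Igfbp3 exchanged places between E9.5 and E10.5, and the sum was higher in AoV and UGR than in AoD.

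The wider pathway was read from a list of 44 further genes, 40 of which were tested. Ins1, Ins2, Wisp2 and Kazald1 stayed below the minimum, and neither insulin gene exceeded 0.0713 RPM in any library. Beside each pair of counts stand the shares of all tested genes called in the same directions. In the ventral tissue 3 of these 40 rose and 4 fell with stage (6.04% and 4.99%), and in the dorsal tissue 6 rose and 3 fell (8.6% and 4%). In AoV 2 were higher and 5 lower than in AoD at E10.5 (5.81% and 4.29%), and 6 were higher and 3 lower at E9.5 (8.32% and 3.47%). Against E10 UGR 4 were higher and 1 lower in E10 AoV (3.84% and 3.73%), and 6 were higher and none lower in E10 AoD (4.76% and 6.56%). The change with stage differed by at least 2-fold between the tissues for 12 of them. The ventral change lay above the dorsal one for 2 and below it for 10 (4.12% and 6.89%).

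Igf2, the embryonic ligand, was found far above Igf1, per kilobase at between 442 ± 83 (E9 AoD) and 1078 ± 23 RPM per kb (E10 AoD), against 1.44 ± 0.26 to 9.84 ± 1.42 for Igf1. It rose with stage in the dorsal tissue (2.47-fold, adjusted p = 4.71e-08), and in the ventral tissue it was at 4470, 4690 and 4870 RPM (lowest, median and highest) at E9.5 and 4600, 4620 and 4780 RPM at E10.5. Igf2 therefore did not follow Igf1 in AoV. Igf2r, the receptor that takes up and degrades IGF2, was 2.14-fold higher in ventral than in dorsal tissue at E9.5 (adjusted p = 4.16e-06), and Ghr, the growth hormone receptor, 3.46-fold (adjusted p = 1.26e-09). Insr, the insulin receptor, was called in none of the comparisons. Unlike Igf1r it passed the adjusted p for E9 AoV over E9 AoD (1.265-fold, adjusted p = 0.033). Insrr, an orphan relative of both, was lower in E9 AoV than in E9 AoD (0.278-fold on the RPM plus 0.1 scale, adjusted p = 0.000599). Outside E9 AoD it reached the minimum of 0.5 RPM only in E10 AoD replicate 2 (0.577 RPM). Its ratio and p-value are therefore no independent test that E9 AoD was higher.

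Among the genes that act on the binding proteins, Pappa encodes PAPP-A, the protease that cuts IGFBP4 and so frees IGF. It was found at 15.1 to 21.1 RPM in E9 AoV, 23 to 33.4 RPM in E9 AoD, 19.9 to 25 RPM in E10 AoD and 14.6 to 16.7 RPM in E10 UGR, but at 70.9 to 85.3 RPM in E10 AoV. E10 AoV stood apart from all other libraries, 4.48-fold above E9 AoV (adjusted p = 1.85e-08), 3.41-fold above E10 AoD (adjusted p = 1.42e-07) and 5.05-fold above E10 UGR (adjusted p = 1.93e-08). Its relative Pappa2, which cuts IGFBP3 and IGFBP5, was 0.167 times as high in E10 AoV as in E10 AoD (adjusted p = 1.43e-06). At E9.5 both genes were lower in AoV than in AoD, Pappa at 0.647 times (adjusted p = 0.00198, short of the fold threshold) and Pappa2 at 0.271 times (adjusted p = 2.66e-05). Stc2, an inhibitor of PAPP-A, fell with stage by 2.35 on the log2 scale in AoD (adjusted p = 1.24e-09) and by 1.11 in AoV (adjusted p = 2.31e-06), and Stc1, its relative, was called in none of the comparisons. Htra1, a secreted protease with a domain like that of the binding proteins, rose 6.08-fold in AoD (adjusted p = 5.15e-10) and 2.29-fold in AoV (adjusted p = 9.53e-07). Igfals, which encodes the acid labile subunit of liver, was found at 1.14 to 1.21 RPM in E9 AoV and at no more than 0.504 RPM in any other library.

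Inside the cell, the adaptor Irs4 fell by 2.97 on the log2 scale between E9 AoV and E10 AoV (adjusted p = 5.78e-09), and Irs1 was 0.496 times as high in E10 AoV as in E10 AoD (adjusted p = 2.91e-06). Grb14, an adaptor that restrains insulin receptor signals, was 2.65-fold higher in ventral than in dorsal tissue at E9.5 (adjusted p = 1.06e-07). None of the downstream genes Pik3ca, Pik3cb, Pik3r1, Pik3r2, Pdpk1, Akt1, Akt2, Foxo1, Foxo3, Mtor, Tsc1 and Tsc2 and none of the 3 Igf2bp genes was called in any comparison. Of the distant relatives of the binding proteins, Cyr61 rose with stage in both AoV (2.68-fold, adjusted p = 5.39e-07) and AoD (3.41-fold, adjusted p = 3.97e-08), and Ctgf and Nov rose in AoD. Wisp1 was 5.05-fold higher in ventral than in dorsal tissue at E9.5 (adjusted p = 1.74e-07) and Igfbpl1 0.135 times as high (adjusted p = 5.39e-08), where the neural tube list summed to between 13.6 and 16.7 RPM, against 191 to 396 RPM in E9 AoD. Esm1, an endothelial proteoglycan gene, was higher in E10 AoD than in E10 UGR (6.50-fold, adjusted p = 1.6e-06).

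The genes whose levels followed each member most closely were sought among 15635 genes with a mean of at least 1 RPM, by Pearson's correlation of log2 values over the 15 libraries. The libraries share 5 tissues, so these values describe likeness between tissue patterns. Igf1 was closest to Tns3 (0.99), Zmym3 (0.98) and Rbms3 (0.98), and Igfbp3 to Casp6 (0.99), 2610018G03Rik (0.99) and Phyh (0.99). Igfbp4 was closest to Arap1 (0.99), Casp6 (0.99) and Tnfrsf1a (0.99), and thus shared Casp6 with Igfbp3. Igfbp7 was closest to Mxd4 (0.995), Nacc2 (0.98) and Cyp2j6 (0.98), and Igfbp2 to Samhd1 (0.98), Slc2a3 (0.97) and AC153909.1 (0.97). Igfbp1 was closest to Cldn2 (0.98) and Pgm2 (0.96), Igfbp5 to AL670941.2 (0.96), Robo2 (0.94) and Robo1 (0.94), and Igfbp6 to Gabra4 (0.96), Plekha2 (0.95) and Nup62cl (0.95). Igf1r, with the flattest pattern, had the lowest values, with Tcf20 (0.87) and Uggt1 (0.87). Among the members themselves the closest were Igfbp3 and Igfbp4 (0.98), Igf1 and Igfbp3 (0.98) and Igf1 and Igfbp4 (0.94), and the most opposed were Igfbp2 and Igfbp7 (-0.79).

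Within the groups, some members also varied together from library to library. After the group means were taken away, Igf1, Igf1r and Igfbp5 correlated with each other at between 0.91 and 0.96 over the 15 libraries, although Igf1r did not follow Igf1 across the tissues (-0.16 over all libraries). In 5 of 5 groups replicate 2 was the highest library for Igf1, Igf1r, Igfbp5 and Igfbp7, which was so for 3.38% of the tested genes, against 0.701% for replicate 1 and 0.62% for replicate 3. Over 15325 genes the deviation of a library from its group mean correlated with exon length (Spearman's rho) at between 0.0691 and 0.347 in the replicate 2 libraries, -0.356 and 0.142 in replicate 3 and -0.348 and 0.206 in replicate 1. The exons of Igf1 span 9921 bases, of Igfbp5 6006, of Igf1r 4476 and of Igfbp7 1213. The part of exon length in these deviations was not tested. They reached 0.34 on the log2 scale for Igf1 and 0.22 for Igf1r, and are contained in the standard errors above.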

How the data were processed

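RNA-seq reads were mapped by the authors with TopHat and Bowtie 0.12.3 to mouse build NCBIM37 (mm9) and assigned to Ensembl genes, reads with several matches being divided between them. The deposited values are RPM (reads scaled to a common total of reads assigned to genes), with no strand and no raw counts. Because 61.6% to 64.1% of low values came out as whole reads, counts were not recovered, and limma 3.58.1 (R 4.3.3) took the place of the DESeq test named in the study. A further 12 columns of the authors' comparisons (log2 fold changes and adjusted p-values) were not used.

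Genes with at least 0.5 RPM in 1 or more libraries (18553 of 28876) were fitted as log2(RPM + 0.1) with group means over 15 libraries and an intensity trend. Two-sided p-values were adjusted by Benjamini-Hochberg over all of them. Levels per kilobase used merged exons of the annotation. The fit recovered known changes in simulated data. Such recovery was not tested for genes as low as Igfbp1 and Igfbp6, for changes near the fold threshold or for libraries deviating together. Other pseudocounts, filters, scalings and thresholds, a test against the fold threshold and each library left out were tried. All 9 genes were named, with the 44 pathway genes where called and the 3 genes most like each member. A few genes of these lists are not reported here. The genes and lists were chosen with earlier results of these data known. The comparison of replicate numbers within groups was made after the values were seen. Intervals of read ratios cover counting error only.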

Additional observations from a re-analysis of the deposited data

Results flagged for a closer look

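By the interaction term of the limma fit, 2 of the 9 genes were called, against 11% of tested genes. Their change with stage differed by at least 2-fold between ventral and dorsal tissue. Igfbp2 passed the adjusted p too (-0.59, SE 0.12, adjusted p = 0.0016), short of the fold threshold. Igfbp1 had entered the test through its E9 AoV and E10 UGR libraries. For Igfbp1 the difference was -3.03 on the log2 scale (SE 0.44, adjusted p = 0.000126), the gene having fallen in 3 of 3 ventral libraries below all E9 AoV libraries while the dorsal libraries overlapped. For Igfbp7 it was -2.15 (SE 0.33, adjusted p = 0.000167), the dorsal rise exceeding the ventral one. Over the alternative settings the difference ranged from -3.36 to -1.40 for Igfbp1 and from -2.36 to -1.51 for Igfbp7.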

How the results depend on the processing

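The fold threshold, and not the adjusted p, set most counts of called members. The tests were limited by 3 libraries a group and, for Igfbp1 and Igfbp6, by a few reads. Counts for E10 AoV over E9 AoV, E10 AoD over E9 AoD, E10 AoV over E10 AoD, E9 AoV over E9 AoD, E10 AoV over E10 UGR and E10 AoD over E10 UGR, which were 5, 3, 3, 2, 2 and 4, became 3, 1, 0, 1, 0 and 1 in a test against a 2-fold change. With no fold threshold they became 6, 5, 6, 8, 3 and 7. The shares of all tested genes that passed in this way were 46%, 57.8%, 35.5%, 47.7%, 29.1% and 39.2%. With a pseudocount of 1 RPM the last 4 became 1, 1, 0 and 2, and with 0.5 RPM E9 AoV over E9 AoD gave 1 and E10 AoV over E10 UGR 0. A minimum of 1 RPM in 3 libraries left 1 for E10 AoV over E10 UGR, as Igfbp6 was then not tested, and quantile normalization left 1 for E9 AoV over E9 AoD. Leaving out 1 library gave 5 to 5, 3 to 3, 2 to 4, 1 to 5, 0 to 2 and 2 to 4, and 2 to 2 for the interaction of stage and position. Over all genes the counts, 1404 to 2337 in the 7 tests, became 735 to 1281 with a pseudocount of 1 RPM, 535 to 1047 in the test against a 2-fold change and 5214 to 10730 with no fold threshold. Quantile normalization moved the share of higher calls for E9 AoV over E9 AoD from 70.6% to 59.4%, and no scaling moved the median of all genes by more than 0.0845.

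No called member changed direction. Some uncalled estimates near 0 changed sign, and the cause was not tested. Igf1r for E9 AoV over E9 AoD did so with median-of-ratios scaling (-0.011), Igfbp2 for E10 AoD over E10 UGR with quantile normalization (0.020) and median-of-ratios scaling (0.027), and Igfbp4 for E10 AoV over E10 UGR with median-of-ratios scaling (0.0029). With 1 library left out the log2 estimates that crossed 0 ranged as follows. For E10 AoV over E9 AoV Igf1r ranged from -0.069 to 0.075 and Igfbp5 from -0.159 to 0.058. For E10 AoD over E9 AoD Igfbp1 ranged from -0.238 to 0.232 and Igfbp6 from -0.078 to 0.484. Igfbp2 ranged from -0.042 to 0.087 for E10 AoV over E10 AoD, from -0.044 to 0.084 for E10 AoV over E10 UGR and from -0.082 to 0.046 for E10 AoD over E10 UGR. Igf1r ranged from -0.057 to 0.087 for E9 AoV over E9 AoD. In the interaction Igfbp3 ranged from -0.188 to 0.072, Igfbp4 from -0.087 to 0.046 and Igfbp6 from -0.021 to 0.570.

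The labels give the groups the same replicate numbers. Deviations from the group mean correlated between same-numbered libraries at -0.14 to 0.45 (median 0.06), above 0.1 in 11 of 30 pairs. Between libraries of different numbers they correlated at -0.35 to 0.19 (median -0.03), above 0.1 in 7 of 60 pairs. Of the 15 libraries, 11 were closest to their own number. Same-numbered libraries thus deviated together in part, which the main fit did not take into account. With the replicate number as a block the counts of called members were 5, 3, 3, 2, 2 and 4, and 2 for the interaction, and no member changed its call. The adjusted p alone fell below 0.05 with the block for the Igf1 interaction (0.0311), for Igf1 in E10 AoV over E10 UGR (0.0497) and for Igf1r in E10 AoV over E10 UGR (0.00375), E10 AoV over E10 AoD (0.0453) and E10 AoD over E9 AoD (0.0482). The pools came from 3 separate experiments, and the labels do not tie the numbers to them.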
